A study of Mus musculus with 32 samples.

Results

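The cytosolic ribosomal proteins are the protein components of the ribosomes that translate nuclear messages in the cytoplasm. Those of the small subunit (Rps genes) surround the decoding centre, those of the large subunit (Rpl genes) surround the site of peptide bond formation, and Rplp0, Rplp1 and Rplp2 form the stalk that recruits elongation factors. Their messages are abundant in liver and many begin with a pyrimidine tract, the TOP motif, through which mTOR signalling controls their translation, and several (Rplp0, Rpl13a, Rps18) are in common use as reference genes. Members were all bead-array probes whose annotated gene symbol follows the Rpl, Rps, Rplp0 to Rplp2 or Rpsa pattern and whose detection p, the probability that background alone gives the signal, was under 0.05 on at least 4 of the 16 arrays of a sex. On the female array version 64 of 77 matching probes were members, for 52 genes, among 12561 detected probes. On the male version 55 of 64 were members, for 43 genes, among 12173. The female members comprised 37 large-subunit, 25 small-subunit and 2 stalk probes, and the male members 34, 19 and 2. Both versions measured 31 of the 64 genes seen on either.

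Liver RNA came from female and male C57bl/6J OlaHsd mice aged 20 weeks. During gestation the dams ate either the 18% control diet or the 9% diet, which was low in protein (casein at 90 g per kg), and from 6 weeks of age the offspring ate a control diet or a high-fat diet (36%) for 14 weeks. Each of the 4 groups of a sex held 4 arrays described as biological replicates, 32 arrays in all. The series asks whether maternal protein restriction programmes liver metabolism differently in the sexes; litters are not given in the labels, and siblings in a group would make the p-values too small. The array versions differ between the sexes, so no level is set between them.

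The labelled tissue was checked against its markers: probes for 17 of 17 hepatocyte markers on the female version and 16 of 16 on the male version were detected. In bulk liver, fewer cells of a type and less RNA per cell cannot be told apart. Raw intensity per array spanned 300.04 to 461 units in females and 170 to 309 in males before normalisation. The rule left out a few probes close to its limit. In females the Rpl21 probe ILMN_2688863 was detected on 3 arrays and stayed out, and the Rpl23 probe ILMN_2685675, detected on 7, stayed in. In males the probes of Rps15a and Rpl38 that were left out were detected on 1 array, and the Rpl4 probe ILMN_2631003, detected on 5, stayed in. Probes for Rpl3l and Rpl39l, the tissue-restricted copies of Rpl3 and Rpl39, were detected on 0 arrays of either sex. Ribosomal protein genes have many processed pseudogenes with near-identical sequence, and the probe sequences were not used here, so a dim probe of a gene cannot be tied to one transcript.

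The start of the transcript is shown for the 4 genes that a comparison called and for 2 members, Rps9 and Rpl13a, that none called. Each line gives 10 bases before and 20 from a RefSeq start, the first listed where there are several, on build GRCm38.p6, on the gene's strand, with the letters CTCTTT or CTTTCC in capitals where they occur. The windows lie at chr7:109519185-109519214 (+) for Rpl27a, chr11:114668570-114668599 (+) for Rpl38, chr9:66946076-66946105 (+) for Rps27l, chr7:24884582-24884611 (+) for Rps19, chr7:3704031-3704060 (+) for Rps9 and chr7:45128726-45128755 (-) for Rpl13a.
Rpl27a: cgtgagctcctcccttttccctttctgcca
Rpl38: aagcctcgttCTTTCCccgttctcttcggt
Rps27l: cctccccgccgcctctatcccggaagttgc
Rps19: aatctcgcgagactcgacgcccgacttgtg
Rps9: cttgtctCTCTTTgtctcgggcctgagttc
Rpl13a: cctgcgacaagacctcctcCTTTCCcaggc
Promoter windows of 300 bases were found for 51 of the 64 member genes. On the transcript strand CTCTTT occurred in 37.3% of these genes and in 13.7% of all 27025 genes with such windows, and CTTTCC in 41.2% and 16.0%. CCGGAAG, the core letters bound by ETS-family factors, occurred on either strand in 41.2% and 9.93%. A match describes letters in the window only.

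The mean level of the members varied little across the diets. The mean log2 intensity over the members spanned 11.40 to 11.59 across the 16 female arrays and 10.31 to 10.68 across the 16 male arrays. In females it was 11.50 ± 0.05 (SD, n = 4) and 11.47 ± 0.04 in the controls and the high-fat group after 18%, and 11.46 ± 0.09 and 11.50 ± 0.01 after 9%. All of these groups overlapped. In males the same order of groups gave 10.47 ± 0.04, 10.38 ± 0.06, 10.50 ± 0.14 and 10.47 ± 0.09. The high-fat males of mothers on 18% were the lowest group, but their means, 10.31 to 10.45, overlapped those of their controls, 10.43 to 10.52. Their share of summed raw intensity carried by the members was 3.07% to 3.29%, below the 3.41% to 3.84% of their controls with no overlap. The large-subunit probes averaged 9.99 ± 0.04 against 10.13 ± 0.03. The small-subunit probes averaged 11.58 ± 0.08 against 11.63 ± 0.06, and these groups overlapped. After 9% the shares of control and high-fat males, 3.30% to 3.94% and 3.20% to 3.68%, overlapped.

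**Figure D1:**
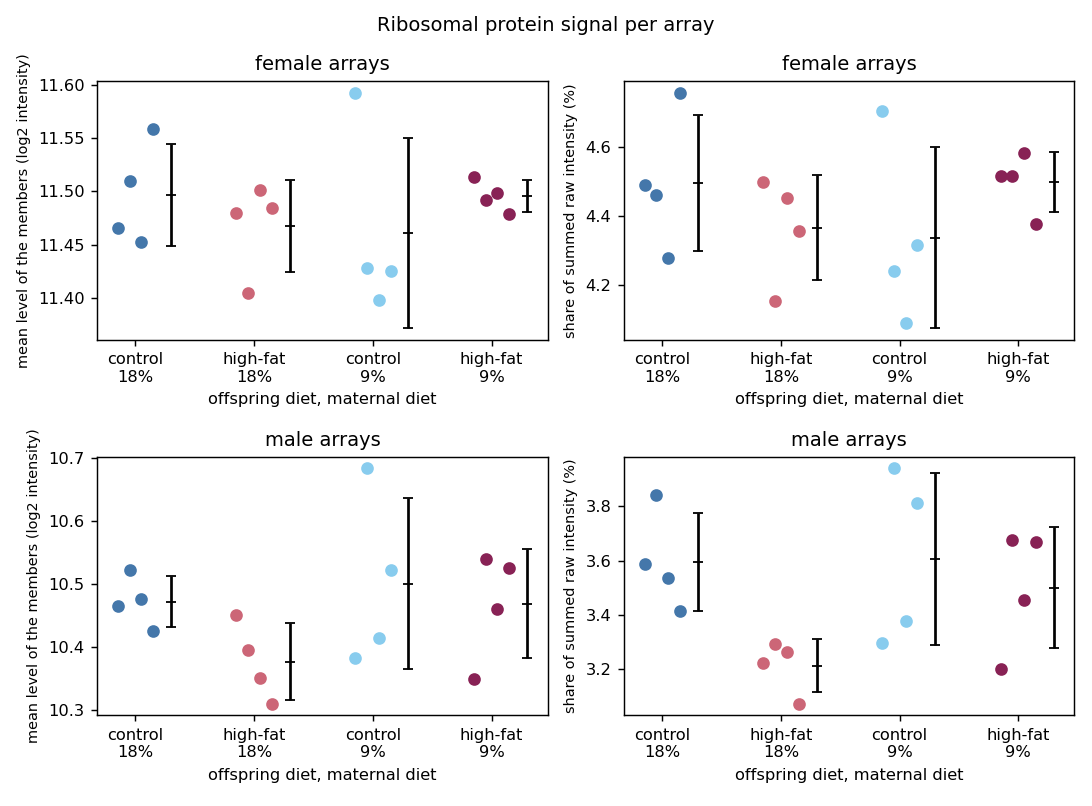
Mean log2 intensity over the member probes (left) and their share of summed raw intensity in percent (right) for each array, by offspring and maternal diet, females above and males below; points are arrays and bars show the mean and SD of 4 arrays. In high-fat males of mothers on 18% all 4 shares, 3.07% to 3.29%, lie below those of the control males. Their mean levels overlap those of the controls of the same maternal diet.

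The median SD and the median range of group means were smaller over the members than over all probes. The median SD within groups was 0.11 for the female members and 0.20 for all detected female probes, and 0.15 and 0.23 in males. The median range of the 4 group means was 0.15 against 0.27 in females and 0.21 against 0.28 in males. Over the 1257 brightest female and 1218 brightest male probes the median SD was 0.15 and 0.20, and the median range 0.25 and 0.28. The smallest SD within groups belonged in females to Rps12 (0.05), Rpl9 (0.07), Rps20 (0.07), Rpl39 (0.07), which lines the exit tunnel of the large subunit, and Rpl10 (0.07), and in males to 3 probes of Rps9 (0.06 to 0.09), Rps20 (0.09) and Rps18 (0.10). The widest ranges of group means were seen on dim probes in part. In females they were on the dim probe of Rps19 (0.81), the dimmer probe of Rpl38 (0.62) and dim probes of Rpl23 and Rpl4. The brighter probe of Rpl27a, with a mean raw intensity of 608 units, was also among them. In males they were on the dim probe of Rps19 (1.17) and on Rpl13, Rpl36, Rpl28 and Rpl29.

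After 18%, high-fat feeding changed no female member past the threshold, an adjusted p under 0.05 in limma with Benjamini-Hochberg adjustment over all 12561 probes; 8 of all probes (0.0637%) passed. Of the 64 members 22 had positive values, with a median of -0.04 (log2) against -0.00 over all probes. At an unadjusted p under 0.05 there were 7 members, where 12% of all probes passed. The high-fat arrays lay wholly below the controls for 8 members and wholly above for 0, where 7.16% of all probes did not overlap, 4.1% lower and 3.06% higher: Rpl12, Rpl13a, Rpl31, Rpl39, Rps6, Rps7, Rps10 and Rps13. The smallest p belonged to Rps13, at -0.25 ± 0.09 (log2, SE, n = 4 per group, limma adjusted p = 0.310), Rps7, at -0.19 ± 0.07 (adjusted p = 0.311), and Rps6, the substrate of the S6 kinases, at -0.23 ± 0.09 (adjusted p = 0.340). Summed hepatocyte marker intensity was 399200 to 422100 in these controls and 369900 to 395400 on high fat. For the stellate markers it was 15790 to 16100 and 13000 to 15120. Of the hepatocyte probes 6 of 22 were positive with a median of -0.09, and of the stellate probes 1 of 15 with -0.18. Of the macrophage probes 12 of 12 were positive with 0.31, and of the endothelial probes 4 of 10 with -0.08. The part of these markers in the result was not tested.

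Rps6 measured 12.56, 12.53, 12.38 and 12.51 in control females of mothers on 18% and 12.30, 12.29, 12.33 and 12.13 in their high-fat counterparts. After 9% the controls measured 12.51, 12.47, 12.18 and 12.58 and the high-fat females 12.14, 12.17, 12.03 and 12.29. The high-fat arrays lay below all controls after 18%, and overlapped with 1 low control after 9%, where the difference was -0.27 ± 0.09 (limma adjusted p = 0.0918, n = 4 per group). Rps6 had no member probe on the male version.

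After 9%, high-fat feeding raised 2 female members and lowered 1. Rpl38, a large-subunit protein whose loss causes the Tail-short skeletal phenotype in mice, and Rps27l, a p53-induced copy of Rps27, rose, and Rpl27a, a large-subunit protein, fell. This is 3 of 64 members, where 4.42% of all detected probes passed, 2.3% higher and 2.12% lower. The members were evenly split, with 33 positive values and a median of 0.01 against -0.01 over all probes; the sign of that median turned with the brightest probe per gene, with detection on 16 arrays, with raw intensity as a covariate and without the 4 dimmest arrays, and median centring gave 0.11, where the median of all probes was 0.06. At an unadjusted p under 0.05 there were 11 members, where 21.7% of all probes passed.

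For Rpl38, probe ILMN_2594971 measured 7.97, 8.17, 7.69 and 7.98 in controls of mothers on 9% and 8.79, 8.51, 8.61 and 8.39 on the high-fat diet. The groups did not overlap, and the difference was 0.62 ± 0.14 (log2, SE, n = 4 per group, limma adjusted p = 0.0242), or 1.54-fold. After 18% the same probe measured 8.06, 8.02, 8.16 and 8.58 in controls and 8.54, 8.07, 8.24 and 8.36 on high fat, with 0.10 ± 0.14. Those groups overlapped. The brighter probe of the gene, ILMN_3135931, differed after 9% by 0.19 with an adjusted p of 0.143 (limma, n = 4 per group). Its mean raw intensity over the female arrays was 15765 units, against 289 for the called probe.

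For Rpl27a, probe ILMN_2882059 measured 9.56, 9.58, 9.62 and 9.30 in controls of mothers on 9% and 9.21, 9.02, 8.99 and 9.08 on high fat, a fall by 0.44 ± 0.10 (log2, SE, n = 4 per group, limma adjusted p = 0.0229). All 4 high-fat arrays were below the controls, of which replicate 4 stood apart on the low side. The controls of mothers on 18% measured 9.16, 9.35, 9.29 and 9.33 and the high-fat females 9.04, 9.00, 9.28 and 9.24, which overlapped. The other probe, ILMN_1221403, differed after 9% by 0.04 ± 0.19, with an interval of -0.35 to 0.43. It was dim, with a mean raw intensity of 34 units beside 608 for the called probe.

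Rps27l measured 13.81, 13.60, 13.55 and 13.70 in controls of mothers on 9% and 13.94, 13.93, 13.98 and 13.88 on the high-fat diet. The high-fat arrays were all higher and close together, and the difference was 0.27 ± 0.07 (log2, SE, n = 4 per group, limma adjusted p = 0.0466). After 18% the difference was 0.17 ± 0.07 (adjusted p = 0.368). In males it was -0.07 ± 0.13 and 0.10 ± 0.13.

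Other members of the females of mothers on 9% whose groups did not overlap were Rpl29, Rps7, Rpsa, the small-subunit protein also known as the laminin receptor, and 2 probes of Rpl23, an Mdm2-binding large-subunit protein; together with the 3 called probes these made 6 higher and 2 lower, where 11% of all probes did not overlap, 5.33% higher and 5.71% lower. The dim Rpl23 probe ILMN_2685675 was detected on 4 arrays of the high-fat group after 9% and on 3 of the other 12, so it entered the members only through the group where it was high and counts as no support for a difference. Rpsa was dim and differed by 0.33 ± 0.15 (limma adjusted p = 0.199, n = 4 per group). In this comparison mean raw intensity was 422 ± 43.9 units in controls and 343 ± 48.9 on high fat, the 8 lymphocyte probes were all negative with a median of -0.28, and the 3 erythroid probes all positive with a median of 0.48. The 3 neutrophil probes were all negative with a median of -0.29, as were 10 of the 12 macrophage probes (-0.15), 10 of the 15 stellate probes (-0.06) and 7 of the 10 endothelial probes (-0.22). Stab2, a scavenger receptor of sinusoidal endothelium, was the one cell type marker called, at -0.41 ± 0.10 (limma adjusted p = 0.0345, n = 4 per group), and summed endothelial marker intensity was 7211 to 8463 in controls and 6251 to 7144 on high fat, over 8 of 9 markers on the array, with Kdr not detected. Summed hepatocyte marker intensity was 385700 to 413300 in controls and 371900 to 385300 on high fat, also without overlap. Of the 22 hepatocyte probes 9 were positive, with a median of -0.02. The part of raw intensity and of these markers in the result was not tested. With mean raw intensity as a covariate limma called 0 members, and without the 4 dimmest female arrays 0, where it called 3 and 0 of all probes. Leaving out 1 array at a time gave 0 to 5 called members: 0 without high-fat replicate 2 or 3, 1 without control replicate 2, 3 or 4, and 5 without high-fat replicate 4. Rpl38 lost its call without control replicate 3 or 4 or high-fat replicate 1, 2 or 3 (adjusted p up to 0.0739), Rpl27a without control replicate 1, 2 or 3 or high-fat replicate 2 or 3 (up to 0.0761), and Rps27l with every array left out except control replicate 1 and high-fat replicate 4 (up to 0.131). Over these fits the differences spanned 0.54 to 0.69 for Rpl38, -0.51 to -0.40 for Rpl27a and 0.23 to 0.31 for Rps27l. With the covariate they were 0.42, -0.33 and 0.20, and without the 4 dimmest arrays 0.43, -0.43 and 0.22.

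**Figure D2:**
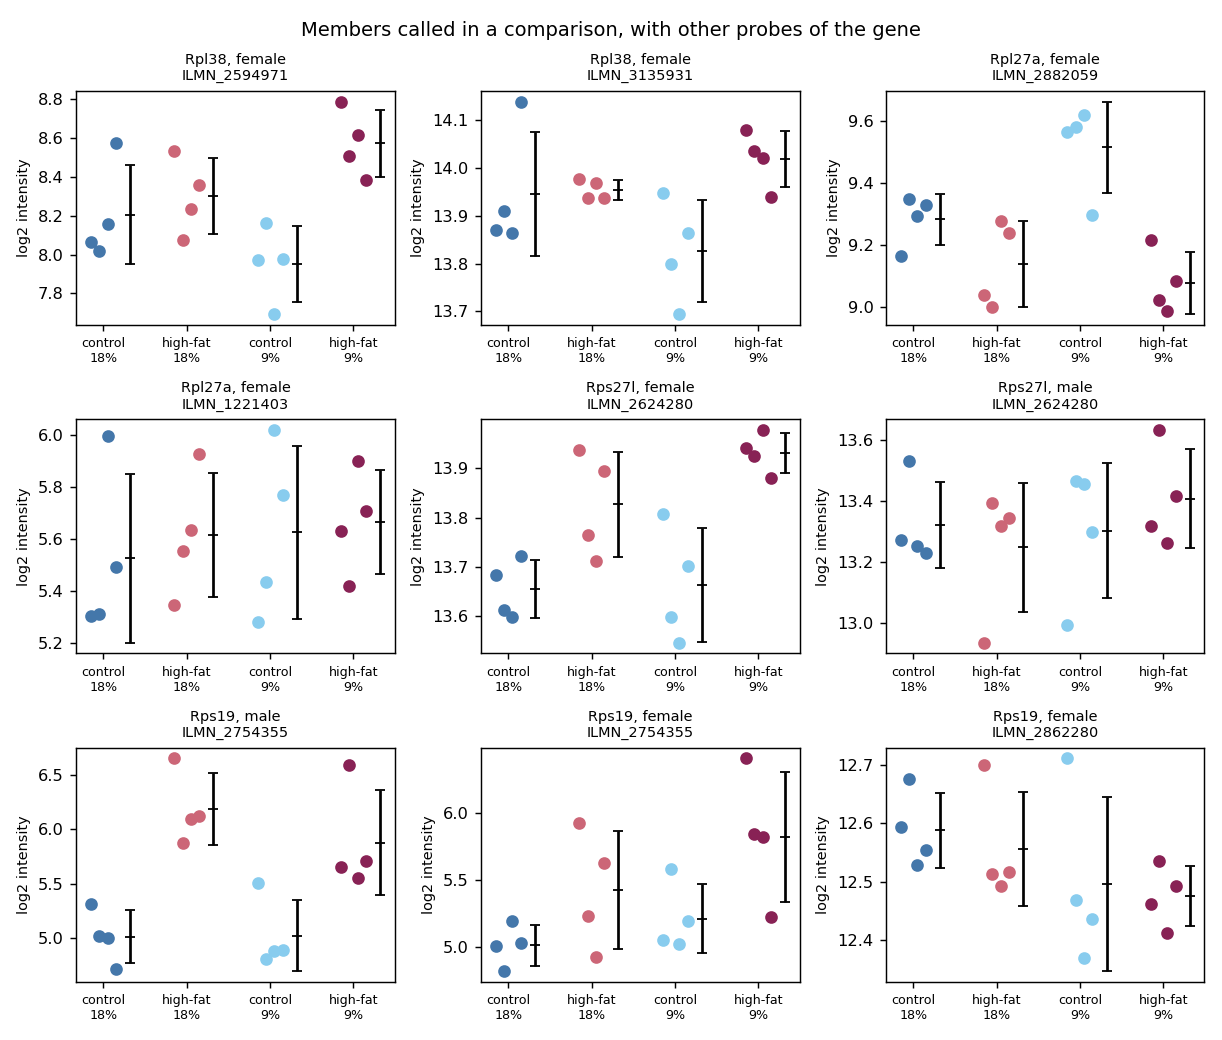
Log2 intensity per array of the probes called in a comparison and of other probes of the same genes, by offspring and maternal diet; points are arrays and bars the mean and SD of 4. The dim Rps19 probe ILMN_2754355 is higher in all high-fat males than in controls of the same maternal diet, while the bright Rps19 probe ILMN_2862280 on the female version differs by -0.03 and -0.02.

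After 18%, most male members had lower values with high-fat feeding, but the single one past the threshold was higher. Of 55 members 15 were positive, with a median of -0.11 against -0.01 over all 12173 probes. The large-subunit members had 8 of 34 positive and a median of -0.14, the small-subunit members 5 of 19 and -0.07. Limma called 1 member, higher, where 0.591% of all probes passed and 0.435% were higher. At an unadjusted p under 0.05 there were 12 members, where 14.7% of all probes passed. The high-fat arrays lay wholly below the controls for 9 members and above for 1. Of all probes 7.06% did not overlap, 3.76% lower and 3.3% higher. Within groups the members deviated together, with a median r between pairs of member probes of 0.28 in males and 0.26 in females. Counts of members are therefore not counts of independent values.

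The called member was Rps19, a small-subunit protein whose mutation causes Diamond-Blackfan anaemia in humans. Its probe ILMN_2754355 measured 5.31, 5.02, 5.01 and 4.72 in controls and 6.65, 5.88, 6.09 and 6.12 on the high-fat diet, a rise by 1.17 ± 0.23 (log2, SE, n = 4 per group, limma adjusted p = 0.0295), or 2.25-fold. The groups did not overlap, and 3 control and 4 high-fat arrays were detected. After 9% the controls measured 5.51, 4.81, 4.88 and 4.89 and the high-fat males 5.65, 6.59, 5.55 and 5.71, again without overlap, with 0.85 ± 0.23 (adjusted p = 0.175). The call was lost without control replicate 2, 3 or 4 or high-fat replicate 1 or 4, with an adjusted p of 0.0788 to 0.115, with raw intensity as a covariate (0.0663) and without the 4 dimmest arrays (0.0721). The difference itself was 1.02 to 1.19 in those fits with 1 array left out, 1.09 with the covariate and 1.25 without the 4 dimmest arrays. In females the same probe was detected on 9 of 16 arrays and differed by 0.42 ± 0.23 after 18% and 0.61 ± 0.23 after 9% (limma adjusted p = 0.494 and 0.132, n = 4 per group). The bright female probe ILMN_2862280 differed by -0.03 ± 0.08 and -0.02 ± 0.08, with intervals of -0.20 to 0.14 and -0.19 to 0.15. The 2 probes thus gave different values on the same female arrays, and the male version held only the dim one among the members.

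The members with the most negative values in these males came from both subunits, and none passed the threshold. Rpl35, which sits at the rim of the exit tunnel, measured 12.12, 12.19, 12.06 and 12.10 in controls and 11.84, 11.67, 11.76 and 11.65 on high fat, a difference of -0.39 ± 0.10 (limma adjusted p = 0.105, n = 4 per group). Rps16 differed by -0.35 ± 0.10 (adjusted p = 0.127) and Rps15 by -0.44 ± 0.12 (adjusted p = 0.131). Rpl28, at -0.45 ± 0.14 (adjusted p = 0.178), was the most negative member. The others without overlap were Rpl29, Rpl34, Rpl36a, Rps29 and a probe of Rps9. Summed hepatocyte marker intensity was 238900 to 246600 in these controls and 231700 to 240700 on high fat, and summed macrophage marker intensity 2724 to 3682 and 3152 to 4656, over 9 of 10 markers on the array, with Cd5l not detected. Of the hepatocyte probes 4 of 19 were positive with a median of -0.08, and of the lymphocyte probes 1 of 5 with -0.10. For the neutrophil probes it was 1 of 4 with -0.23, and for the endothelial probes 3 of 7 with -0.12. Of the macrophage probes 5 of 9 were positive with a median of 0.11. For the stellate probes it was 8 of 10 with 0.23, and for the erythroid probes 2 of 3 with 0.28. Summed erythroid marker intensity was 8494 to 9600 in these controls and 9247 to 13360 on high fat, over 3 of 4 markers on the array, with Epb42 not detected, and summed stellate marker intensity 6686 to 9122 and 7707 to 8246, over 7 of 11. Mean raw intensity was 267 ± 14.8 and 245 ± 56.8 units, and replicate 3 of the high-fat group stood at 170. Their part in the result was not tested; without the 4 dimmest male arrays the median of the members was -0.07.

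**Figure D3:**
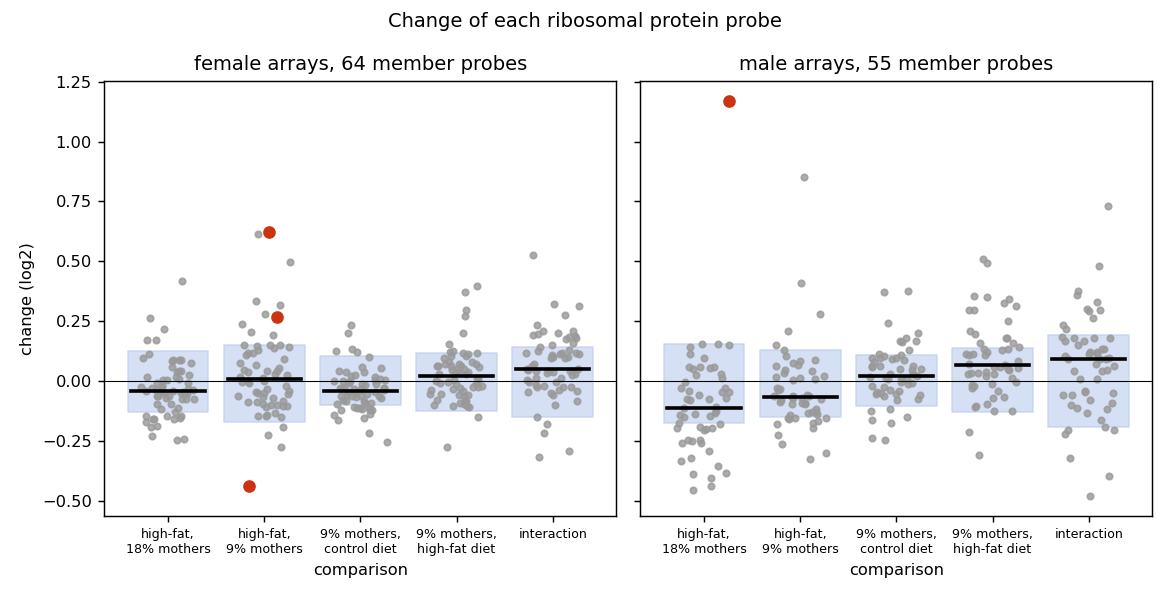
Log2 change of every member probe in each comparison, females left and males right; red points passed the adjusted p of 0.05, black lines are the members' medians and blue boxes span the quartiles of all detected probes. The high-fat median of males after 18% is -0.11, and the red point at 1.17 is Rps19.

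After 9%, high-fat feeding changed no male member past the threshold, where 0.214% of all probes passed. Of 55 members 20 were positive, with a median of -0.07 against -0.01 over all probes. When arrays were centred on their medians in place of quantile normalisation, the median became 0.01, where that of all probes was 0.05. At an unadjusted p under 0.05 there were 4 members, where 10.5% of all probes passed. The groups did not overlap for 5 members, 3 higher and 2 lower, where 7.77% of all probes did not. The smallest p after Rps19 belonged to Rpl29, a heparin-binding large-subunit protein, at 0.41 ± 0.12 (limma adjusted p = 0.208, n = 4 per group), and Rps16, at -0.26 ± 0.10 (adjusted p = 0.340). The high-fat effects after 18% and 9%, which use separate arrays, were both negative for 25 of the 55 male members and both positive for 5. In females they were both negative for 27 of 64 and both positive for 18.

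**Figure D4:**
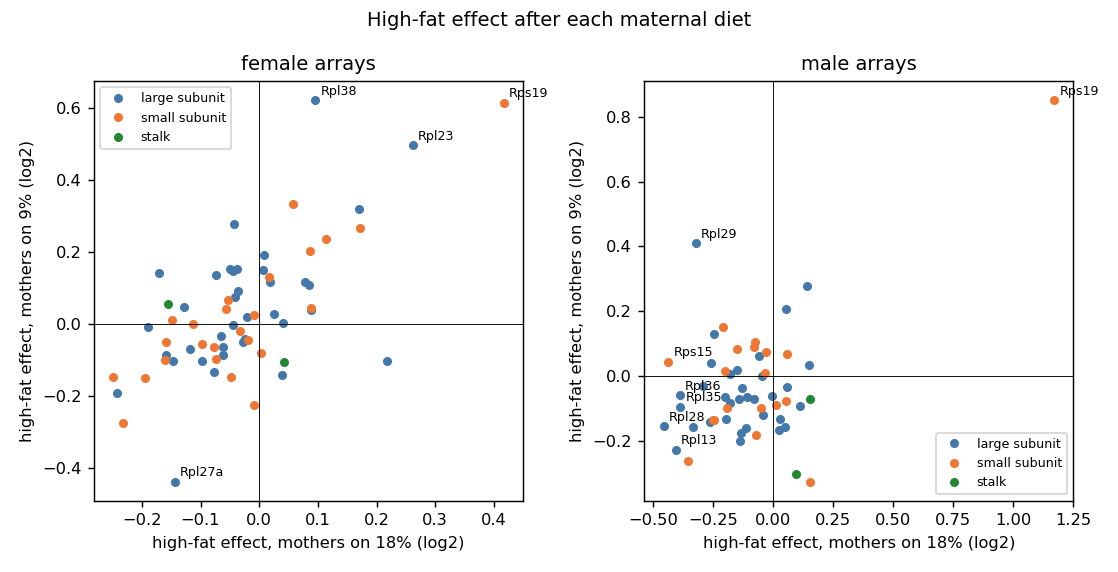
Log2 high-fat effect of each member after 18% (horizontal) against that after 9% (vertical), females left and males right, coloured by subunit. The labelled Rps19 point at the upper right is the dim probe ILMN_2754355 in both sexes, the bright female probe lies near the origin at -0.03 and -0.02, and Rpl29 is at the upper left in males.

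The maternal diet was compared at each offspring diet. In females on the control diet limma called 0 members and 0 of all probes (0%); at an unadjusted p under 0.05 there was 1 member, where 6.19% of all probes passed. The members had 19 of 64 positive values and a median of -0.04, and the groups overlapped for all 64, where 3.21% of all probes did not overlap. The smallest p was that of Rpl27a ILMN_2882059, at 0.23 ± 0.10 (adjusted p = 0.741, n = 4 per group). On the high-fat diet it again called 0, with 36 positive and a median of 0.02, and 1 member at an unadjusted p under 0.05, where 9.29% of all probes passed. The groups did not overlap for 1 higher and 1 lower member, where 4.11% of all probes did not. The member with the smallest p was Rpl22, a large-subunit protein that T cell development requires in mice, at -0.28 ± 0.11 (adjusted p = 0.491, n = 4 per group).

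In males on the control diet 0 members and 0 of all probes (0%) passed, 33 of 55 members were positive and the median was 0.02, or -0.00 with median centring. At an unadjusted p under 0.05 there was 1 member, where 4.07% of all probes passed, and 1 higher and 1 lower member did not overlap, where 2.85% of all probes did not. The smallest p was that of Rplp0, the stalk base, at 0.38 ± 0.17 (limma adjusted p = 1.00, n = 4 per group), on a dim probe with a mean raw intensity of 53 units. In males on the high-fat diet 0 passed, and 40 of 55 were positive with a median of 0.07 against 0.00 over all probes. At an unadjusted p under 0.05 there were 8 members, where 6.85% of all probes passed. The smallest p belonged to Rpl29, at 0.49 ± 0.12, Rps15, at 0.36 ± 0.12, and Rpl34, at 0.33 ± 0.11 (limma adjusted p = 0.708 for each, n = 4 per group). Offspring of mothers on 9% lay wholly above those of mothers on 18% for 6 members and below for 0, where 3.52% of all probes did not overlap, 1.92% higher and 1.59% lower: Rpl27a, Rpl29, Rpl34, Rpl35, Rps9 and Rps15. This comparison shares the high-fat males of mothers on 18% with the high-fat comparison above.

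In males the high-fat values of Rpl29 had opposite signs after the 2 maternal diets, and neither passed the threshold. It measured 9.09, 9.05, 8.85 and 8.99 in controls and 8.83, 8.61, 8.62 and 8.64 on high fat after 18%, and 8.74, 8.56, 8.81 and 8.91 in controls and 9.03, 9.34, 9.02 and 9.27 on high fat after 9%. The high-fat arrays were all below the controls after 18% and all above them after 9%. The interaction was 0.73 ± 0.17 (log2, SE, n = 4 per group, limma adjusted p = 0.528). Rps15 followed at 0.48 ± 0.17 (adjusted p = 0.649). Limma called 0 members and 0 of all probes (0%) for the interaction in either sex; 1 female and 2 male members had an unadjusted p under 0.05, where 5.21% and 7.26% of all probes did. In females the smallest p was that of Rpl38, at 0.53 ± 0.20 (adjusted p = 0.898).

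The sexes were compared by setting the male effect against the female effect for the 31 member genes on both versions. They were taken among 6941 genes, each by its brightest probe. Each sex was run on its own array version, so sex and version cannot be told apart in these differences. Limma called 0 members and 0 of all genes (0%) for any of the 4 diet comparisons. For the high-fat diet after 18% there were 7 members at an unadjusted p under 0.05, where 10.7% of all genes passed, and 7 after 9%, where 7.28% passed. The brightest probe was the same one in both sexes for 18 of the 31 genes, but for only 3 of these 7 after 18% (Rpl35, Rpl41 and Rps15) and 1 of 7 after 9% (Rpl37). For the maternal diet there were 1 on the control diet, where 6.21% passed, and 3 on high fat, where 8.23% passed. The largest difference was that of Rps19, at 1.20 ± 0.25 (adjusted p = 0.139, n = 4 per group), which sets the dim male probe against the bright female one. Of those on the same probe Rpl35 had the smallest p after 18%, at -0.32 ± 0.12 (adjusted p = 0.373).

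Members used as reference genes or known for roles outside the ribosome mostly had intervals that held 0. In females the high-fat effect on Rplp0 was 0.04 (95% interval -0.20 to 0.28) after 18% and -0.11 (-0.35 to 0.13) after 9%, and that on Rplp1, its stalk partner, was -0.15 (-0.35 to 0.04) and 0.06 (-0.14 to 0.25). The Rplp0 probe was dim, with a mean raw intensity of 54 units beside 18965 for Rplp1, which limits its value. In males the 2 Rplp0 probes differed by 0.09 and 0.15 after 18% and by -0.30 and -0.07 after 9%, and 0 were called. Rpl13a, which has a role in silencing inflammatory messages, had values of -0.24 ± 0.10 and -0.19 ± 0.10 in females (limma adjusted p = 0.360 and 0.283, n = 4 per group). Its 95% interval after 18% lay below 0. In males its probes lay between -0.13 and 0.03. Rps18 in males differed by -0.03 (-0.21 to 0.15) and 0.01 (-0.17 to 0.20). Rpl5 and Rpl11, which bind Mdm2 together with the 5S RNA, differed in males by 0.15 ± 0.11 and 0.06 ± 0.11 after 18%. Rpl3, at the peptidyl transferase centre, differed in females by 0.04 ± 0.08 and 0.00 ± 0.08, and Rpl19 by 0.09 ± 0.08 and 0.11 ± 0.08. For the high-fat diet after 18% the 95% interval lay within 0.5 log2 units of 0 for 61 of 64 female and 39 of 55 male members, and after 9% for 57 and 47.

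**Figure D5:**
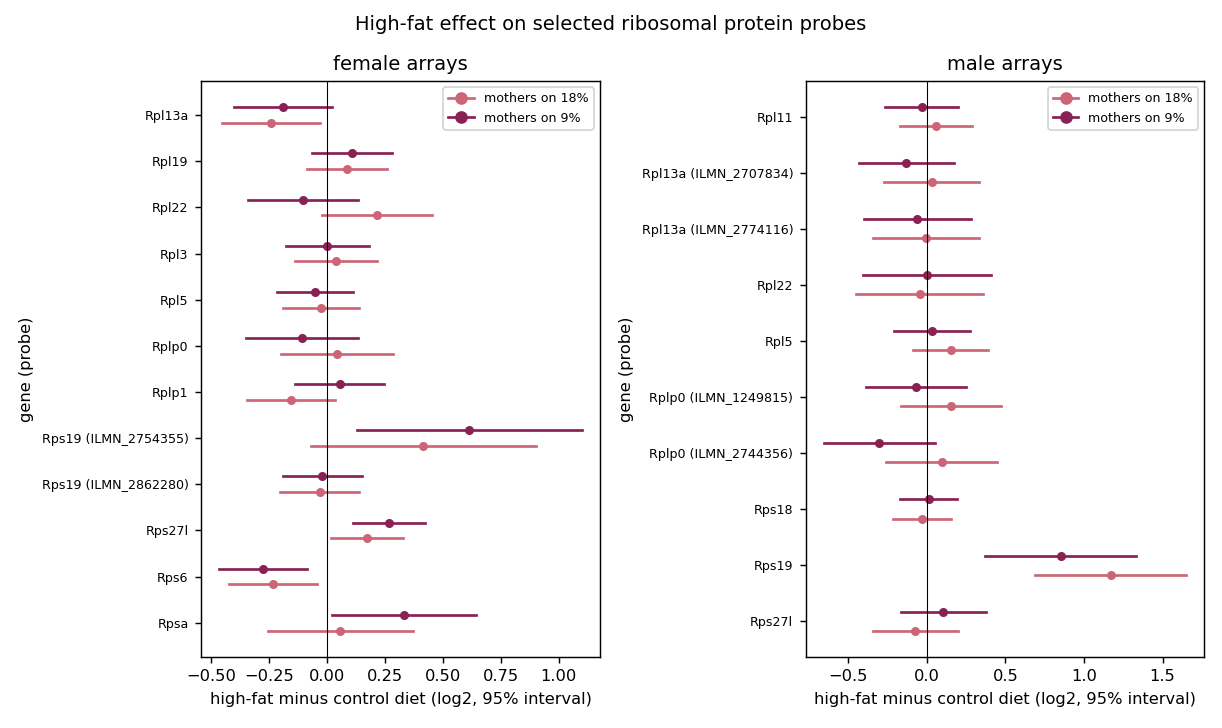
High-fat minus control difference (log2, horizontal) with 95% intervals for member probes fixed for description, females left and males right, after each maternal diet. Rps19 at the dim probe is the widest departure in males, at 1.17 and 0.85.

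Where 2 probes of a gene were members they did not always give the same value. In females the high-fat effect after 9% differed between probes by 0.63 for Rps19, 0.48 for Rpl27a, 0.43 for Rpl38 and 0.42 for Rpl4, and in males by 0.40 for Rpl23. The dimmer female probes had mean raw intensities of 25, 34, 289 and 21 units in that order of genes. The bright Rpl4 probe ILMN_2874507 gave -0.14 ± 0.10 and the dim one, ILMN_2631003, 0.28 ± 0.19.

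Other genes of translation were described from lists. Of 42 initiation factor probes limma called 4 lower and 0 higher in high-fat females after 9%, with 7 positive and a median of -0.13: Eif4a2, an RNA helicase of the cap-binding complex, by -0.47 ± 0.08 (adjusted p = 0.00882, n = 4 per group), Eif4b, its cofactor, by -0.74 ± 0.16 (adjusted p = 0.0188), Eif2s2, a subunit of the factor that brings the initiator tRNA, by -0.45 ± 0.11 (adjusted p = 0.0358), and Eif4a1. The 13 elongation factor probes had 0 called and a median of -0.14, and the 53 ribosome biogenesis probes 0 called and a median of -0.03. The 96 probes of mitochondrial ribosomal proteins, which serve a separate ribosome, had 9 higher and 0 lower in this comparison, with 84 positive and a median of 0.17 beside 0.01 for the cytosolic members. Of 23 probes of growth regulators 2 were called in the same females: Cdkn1a, the p53-induced cell cycle inhibitor, rose by 1.48 ± 0.38 (limma adjusted p = 0.0389, n = 4 per group), and Deptor, an mTOR inhibitor, fell by 0.67 ± 0.18 (adjusted p = 0.0445). Over all probes 4.42% were called in this comparison, 2.3% higher and 2.12% lower, and with raw intensity as a covariate 3 of the 12561 probes were, and 0 without the 4 dimmest arrays. In males after 18% the initiation, elongation and biogenesis lists had 0 called and medians of -0.10, -0.19 and -0.09, and the 16 probes of growth regulators had 0 called.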

How the data were processed

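Per the labels' protocols, biotinylated cRNA was made from total liver RNA, and each sample had 1 bead array. The authors deposited intensity per probe, background-subtracted and not normalised between arrays, with a detection p-value per the file headers; the software was BeadStudio, per the submitters' processing notes, without a version. A second deposited table of intensity, normalised by the authors, served as an alternative. Probes were named from the platform annotation (23978 of 25697 female and 20984 of 24613 male probes had 1 symbol, and 0 and 1 had several).

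Each sex was normalised with neqc (limma 3.58.1, R 4.3.3, offset 16, negative controls inferred from the detection p) and log2 values were fitted with lmFit and eBayes with an intensity trend over all 4 groups, two-sided, with Benjamini-Hochberg adjustment over all detected probes. The array number limits the precision. Normalisation between arrays removes a shift common to all probes. The labels call arrays biological replicates; p-values measure the spread between them only. Replicate numbers follow the order of the titles within a group, and the titles name no pairs. Same-numbered arrays deviated together (r over 0.1) in 10 of 24 pairs in each sex, with r up to 0.33 in females and 0.48 in males. Pairs of other numbers were not compared, so these values cannot show whether arrays were paired. The main fit held no pairing. The fit was checked on simulated data. Figures used Python 3.11.15 and matplotlib 3.10.9. Promoters are RefSeq's.

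Members and lists were chosen with earlier results of these data known. Named were, per comparison, up to 6 rises and 6 falls past the threshold or the 3 smallest p, 15 fixed genes where members, the 5 widest group ranges, the 5 smallest SDs, and the 3 genes whose probes differ most; members without overlap, Rps9 and Rpl13a at the sequences, were added after their values were seen. Alternatives were the deposited normalised table, no normexp, median centring, other filters, the brightest probe per gene, raw intensity as a covariate, no trend, fewer groups or arrays, and the replicate number as a block.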

Additional observations from a re-analysis of the deposited data

Results flagged for a closer look

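Of 236 groups of 4 arrays checked, 15 had 1 array far from the other 3 by Dixon's 95% criterion, where chance gives about 1 in 20. In females these were replicate 1 of the controls of mothers on 9% for the mean level of all members, at 11.59 against 11.40 to 11.43, and replicate 4 of that group for Rpl27a ILMN_2882059, at 9.30 against 9.56 to 9.62. Rplp0 ILMN_2744356 stood at 5.99 in control replicate 2 after 18%. Rps19 ILMN_2862280 stood at 12.70 in replicate 1 and Rps20 ILMN_1253910 at 14.21 in replicate 3 of the high-fat females after 18%.

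In males, control replicate 2 after 18% was high for Rps3 ILMN_2637639 (11.60), Rps18 ILMN_2639750 (13.48) and Rps27l ILMN_2624280 (13.53). Among high-fat males after 18%, replicate 1 was high for Rpl29 ILMN_2730005 (8.83) and low for Rps27l (12.93), and replicate 4 was low for Rps20 (13.44). After 9%, Rps19 ILMN_2754355 stood at 5.51 in control replicate 1 and at 6.59 in high-fat replicate 2. Rps9 ILMN_1377921 stood at 11.87 in control replicate 2, and Rpl5 ILMN_1239211 at 12.03 in high-fat replicate 2.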

How the results depend on the processing

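Of 428 values of counts and medians under an alternative, 405 kept their side of the threshold or moved by less than the spread between replicates; of 5510 values of single probes 5407 did. No called value changed sign. Medians over the members, which carry no test, had the other sign in 15 of 204 alternatives, in 4 of the comparisons, with values of -0.036 to 0.0065. For the high-fat diet in females after 9%, 3 members were called, against 0 with raw intensity as a covariate, 1 with only the compared groups and 0 without the 4 dimmest arrays, and 0 to 5 with 1 array left out, when the median spanned -0.026 to 0.069. In males after 18%, 1 was called, against 0 with detection on all 16 arrays, where the Rps19 probe is left out by construction, 0 with the covariate, 0 without the 4 dimmest arrays and 0 to 1 with 1 array left out. Median centring moved the members' medians to 0.11 for the high-fat diet after 9% in females, 0.11 for the maternal diet on high fat, and 0.14 for their interaction; in males to 0.18 for the maternal diet on high fat and 0.19 for the interaction. It moved the median of all probes to at most 0.06. The cause was not tested. With the replicate number as a block the called members were 3 in females after 9% and 1 in males after 18%, as without it, and 0 in the other comparisons. It changed no count of called members. Over all probes it moved the high-fat count from 555 to 620 in females after 9%. In males it moved that count from 72 to 65 after 18% and from 26 to 17 after 9%. Of the settings other than leaving out 1 array, 2 of 10 ended the call of Rps19 in males (adjusted p up to 0.0721), 2 of 10 that of Rpl38 (up to 0.574), 3 of 11 that of Rpl27a (up to 0.436) and 6 of 11 that of Rps27l (up to 0.612), among them no detection filter, no trend and median centring. The slide as a block was not run, as neither the labels nor the headers name slides. Probes near background limit Rps19, Rpl4, Rpl21, Rpl23, Rplp0, Rpsa and the second probe of Rpl27a.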
